A study of Mus musculus with 20 samples.

Results

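Lung RNA of 5 mouse dams given a low dose of carbon black during pregnancy was compared with that of 5 dams given water. The 10 arrays were chosen by their titles, Low and Control, out of 20 arrays in all; the other 10 held 5 dams of a medium and 5 of a high dose. All dams were time-mated, young adult, nulliparous C57BL/6BomTac females, and each dam had its own array. Carbon black Printex 90, a powder of nanosized carbon particles, was instilled into the trachea 4 times: on day 7 of gestation, on day 10, on day 15 and on day 18. A low-dose dam received 2.75 µg each time, 11 µg in total, and a control dam received water on the same days; the medium and high total doses were 54 and 268 µg. Lungs were taken 26 to 27 days after exposure, once the pups had been weaned, so the comparison asks what a low dose leaves in lung expression at that time. Each lung sample, labelled with Cy5, was hybridised together with a universal mouse reference RNA in Cy3. A value below is the log2 of lung over reference signal for a gene on 1 array, and a difference is a low-dose mean minus a control mean on that log2 scale unless another contrast is named.

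Instilled particles are taken up mainly by alveolar macrophages, the resident phagocytes of the airspaces. Particle loads beyond what these cells clear are known to draw in neutrophils through chemokines such as Cxcl5 and to raise acute-phase proteins such as serum amyloid A. The lung also holds a small population of plasmacytoid dendritic cells, which sense nucleic acids through Tlr7 and Tlr9, secrete type I interferon and are marked in the mouse by the receptor Siglech. The transcription factor Tcf4, which binds the E-box CANNTG, directs the gene programme of these cells.

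Siglech was the only gene of the comparison that passed the test. The stretch before its start is shown with those of Pld4 and Ccr9, which are also genes of plasmacytoid dendritic cells and had low-dose means below the control means. Of 21 measured genes of these cells, a list chosen after values were seen, 15 lay below and 6 above 0. A link between the motif and the differences was not tested. The 250 bases upstream of each start were taken from RefSeq (GRCm38.p6), 5′ to 3′ on the plus strand, with every CANNTG in capitals. This motif reads the same on both strands.
Siglech, chr7:55767934-55768183: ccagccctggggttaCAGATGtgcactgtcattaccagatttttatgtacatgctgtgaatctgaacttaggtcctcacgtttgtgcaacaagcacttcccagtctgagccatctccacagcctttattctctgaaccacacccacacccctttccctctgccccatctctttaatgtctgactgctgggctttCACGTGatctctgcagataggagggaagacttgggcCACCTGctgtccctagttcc
Pld4, chr12:112760405-112760654: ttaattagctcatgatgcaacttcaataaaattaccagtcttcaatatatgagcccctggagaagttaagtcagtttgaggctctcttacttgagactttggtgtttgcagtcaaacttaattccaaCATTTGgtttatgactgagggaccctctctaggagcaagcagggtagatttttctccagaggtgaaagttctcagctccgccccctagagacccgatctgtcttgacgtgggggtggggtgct
Ccr9, chr9:123766961-123767210: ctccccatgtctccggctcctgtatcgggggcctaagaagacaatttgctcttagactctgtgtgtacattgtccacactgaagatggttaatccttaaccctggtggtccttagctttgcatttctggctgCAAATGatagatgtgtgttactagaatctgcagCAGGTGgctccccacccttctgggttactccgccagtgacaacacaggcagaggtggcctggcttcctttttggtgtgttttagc
The motif occurred 3 times before Siglech, 1 time before Pld4 and 2 times before Ccr9. Of 32851 RefSeq promoters of the same length, 66.2% held it at least 1 time, 31.8% at least 2 times and 12.2% at least 3 times, so most promoters hold these letters.

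The 10 arrays were of like quality. The Cy5 signal lay well above background for 68.9% to 78.3% of probes, and the median Cy5 signal was 174 to 241 intensity units over a local background of 80 to 83. The number of arrays limits the precision. All 15 markers of alveolar, airway and endothelial cells that were looked up, among them Sftpc, Ager, Scgb1a1, Foxj1 and Cdh5, lay well above background on all 10 arrays. Each of slides 1 to 5 carried 1 control and 1 low-dose array, always in the same positions, so array position and dose cannot be told apart. Control dam 14 stood apart from the other 9 dams: it had the highest means of the leukocyte, macrophage, neutrophil and endothelial gene lists and the lowest mean of cardiac muscle genes, and leukocyte results are therefore given with and without it. Low-dose dams 27 and 28 had the highest means of the liver gene lists.

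After the low dose 1 of 20108 genes passed the test. Siglech fell and 0 genes rose; the test was limma's moderated test over all 20 arrays, with Benjamini-Hochberg adjustment over all genes and a threshold of 0.05. The share called was 0.00497% of genes. At an unadjusted p under 0.05, 688 genes lay higher (3.42%) and 821 lower (4.08%), 7.5% together. The 5 dams of each group did not overlap for 122 genes with higher low-dose values (0.607%) and 177 with lower ones (0.88%). On all 5 slides the low-dose dam was the higher one for 1344 genes (6.68%) and the lower one for 1420 (7.06%). Counts within the gene lists below can be set against these shares, which is not a test for lists chosen after values were seen. The median difference over all genes was -0.00028, with 49.9% of genes above and 50.1% below 0.

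These arrays bound the difference of most genes. Its 95% interval lay within a doubling or halving for 98.9% of genes and within 1.5-fold for 95.6%, with a median half-width of 0.16. No gene had an estimate past a halving, and 23 had one past a doubling. Of those 23 genes, 18 belonged to the lists of liver-made transcripts described further on, and 0 passed the test. Those lists were drawn up after values were seen. The others, which had not been put on those lists, were Serpina1d, 1300017J02Rik, Slco1b2, Akr1c6 and Cyp2c40. Whether these genes are also liver-made was not tested. In each of these, dams 27 and 28 had the highest values among low-dose dams, as in the liver lists. The deposited ratios had no background subtracted, which pulls the differences of dim genes towards 0.

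**Figure D1:**
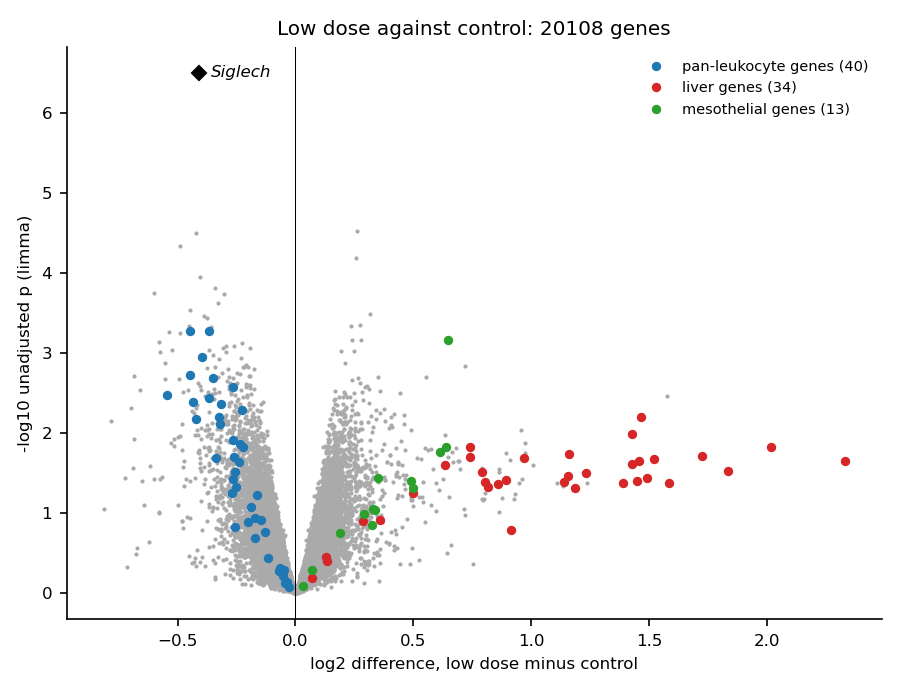
Each point is 1 of 20108 genes, with its log2 difference of low dose minus control on the x axis and -log10 of its unadjusted p on the y axis; colours mark 40 pan-leukocyte genes and the liver and mesothelial genes, lists chosen after values were seen. Siglech stands above all other genes, the leukocyte genes lie left of 0 and the liver genes right of 0.

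Siglech, a Siglec family receptor of plasmacytoid dendritic cells that signals through the adaptor Tyrobp, was lower in every low-dose dam than in any control. Here and below, values are listed for control dams 4, 7, 14, 15 and 18 and then for low-dose dams 25, 27, 28, 31 and 36. Siglech lay at 0.93, 0.80, 0.84, 0.71 and 0.88 in controls and at 0.46, 0.35, 0.45, 0.42 and 0.42 after the low dose. The groups did not overlap. The means were 0.83 ± 0.084 and 0.42 ± 0.046 (SD, n = 5 each). The difference was -0.41 ± 0.054 (SE; 95% interval -0.53 to -0.30; adjusted p = 0.00633 by limma), which makes Siglech 1.33-fold lower (95% interval 1.23 to 1.44). The low-dose dam was lower on 5 of 5 slides, with differences from -0.47 to -0.29. In bulk lung, fewer cells of a type and less of its RNA per cell cannot be told apart.

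The Siglech signal was dim but measured on every array. Its probe (chr7:52015392-52015451 in mm7, the build named in the file headers) had a median Cy5 signal of 147 intensity units and was well above background on all 10 arrays. The call was lost with 6 of the alternative settings, all of the same direction. They were normexp background correction (-0.37, adjusted p = 0.657), the scanner software's background-subtracted ratio (-0.81, adjusted p = 0.794) and the Cy5 channel alone (-0.36, adjusted p = 0.955). The other 3 were a fit of only the 10 arrays (adjusted p = 0.0624), that fit with slide as a block (adjusted p = 0.0897) and the fit without dams 27 and 28 (adjusted p = 0.201).

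All 3 exposed groups sat below the control values of Siglech. It lay at 0.23, 0.31, 0.25, 0.45 and 0.20 in the medium-dose dams and at 0.46, 0.42, 0.28, 0.37 and 0.44 in the high-dose dams. These ranges overlapped with that of the low dose. Medium minus low was -0.13 ± 0.054 (SE, adjusted p = 0.997) and high minus low was -0.027 ± 0.054 (SE, adjusted p = 0.917), neither of which passed. Against the same 5 controls, the difference was -0.54 (adjusted p = 7.83e-05) for the medium and -0.44 (adjusted p = 0.00141) for the high dose. The 3 differences from control share those controls and are not independent. Medium-dose dams 49 and 50, the last 2 listed, were alone on slide 6. That slide was scanned on a separate day with another software version.

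None of the next genes by p on the lower side passed the test; those with a symbol are described here. Gngt2, a gamma subunit of heterotrimeric G proteins, lay at 1.36, 1.41, 1.69, 1.53 and 1.72 in controls and at 1.21, 0.87, 1.14, 1.19 and 1.18 after the low dose. Its groups did not overlap, and the difference was -0.42 ± 0.078 (SE, adjusted p = 0.211). Pld4, an endolysosomal nuclease of dendritic cells and macrophages, lay at 0.029, 0.16, 0.56, 0.11 and 0.38 and then at -0.10, -0.49, -0.16, -0.29 and -0.18. Every low-dose dam was below every control (difference -0.49 ± 0.095, adjusted p = 0.231).

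Tm6sf1, a multi-pass membrane protein, gave 2.09, 2.30, 2.31, 2.30 and 2.27 in controls against 1.88, 1.60, 1.96, 1.91 and 1.89. Klrb1f, a receptor of the natural killer cell family NKR-P1, gave 0.87, 0.97, 1.01, 1.15 and 1.02 against 0.54, 0.53, 0.74, 0.77 and 0.74. Neither gene's groups overlapped, and their differences were -0.41 and -0.34 (adjusted p = 0.375 and 0.403); a second Tm6sf1 probe lay at -0.22. Rgs18, a regulator of G protein signalling in platelets and myeloid cells, differed by -0.60 ± 0.13 (SE, adjusted p = 0.403), with 1 low-dose dam above the lowest control, and its second probe lay at -0.32. The differences of Unc119, a trafficking chaperone, and Pcdhb4, a protocadherin, were -0.33 and -0.45 (adjusted p = 0.468 and 0.509), and neither gene's groups overlapped. ENSMUST00000023427, a transcript without a symbol in the files, ranked ahead of Unc119 (-0.30, adjusted p = 0.403). Sh2d1b1, an adaptor of natural killer cell receptors singled out after its values were seen, was the 1 gene called when only the 10 arrays were fitted (adjusted p = 0.0404). It ranged from 1.10 to 1.21 in controls and from 0.73 to 0.81 after the low dose, a difference of -0.39 (adjusted p = 0.509 in the fit over 20 arrays).

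No gene passed on the higher side. The smallest p there belonged to TC1482443, a transcript without a symbol in the files, whose groups did not overlap (difference 0.26 ± 0.048, SE, adjusted p = 0.211). The 8 genes described next are those with a symbol and the smallest p. Nog, the secreted BMP antagonist noggin, lay at -0.52, -0.40, -0.30, -0.35 and -0.21 in controls and at -0.062, -0.11, -0.084, -0.13 and -0.12 after the low dose. The groups did not overlap, and the difference was 0.25 ± 0.050 (SE, adjusted p = 0.260). It turned to -0.51 with the Cy5 channel alone. Bnc1, the zinc finger protein basonuclin 1 of mesothelium and other epithelia, lay at -2.08, -2.07, -2.37, -2.51 and -2.59 and then at -1.62, -1.54, -1.72, -1.77 and -1.74. Its groups did not overlap, and its difference of 0.65 ± 0.16 (SE, adjusted p = 0.522) was the largest of these 8.

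Kif5c, a kinesin heavy chain, ranged from -2.04 to -1.66 in controls and from -1.65 to -1.47 in low-dose dams, a difference of 0.32 (adjusted p = 0.509). Anks1, an adaptor with ankyrin repeats, differed by 0.27 (adjusted p = 0.509), and Caprin1, an RNA-binding protein of stress granules, by 0.24 (adjusted p = 0.509), while 2 other Caprin1 probes lay at -0.041 and 0.14. Rbm28, a nucleolar RNA-binding protein, differed by 0.28 (adjusted p = 0.522), with other probes at 0.33, 0.69 and 0.30. Gcdh, the mitochondrial glutaryl-CoA dehydrogenase, differed by 0.25, and Hoxa3, a homeobox factor, by 0.24 (adjusted p = 0.522 and 0.522). A second Hoxa3 probe lay at 0.079. The groups of these 6 genes did not overlap, except for Hoxa3.

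**Figure D2:**
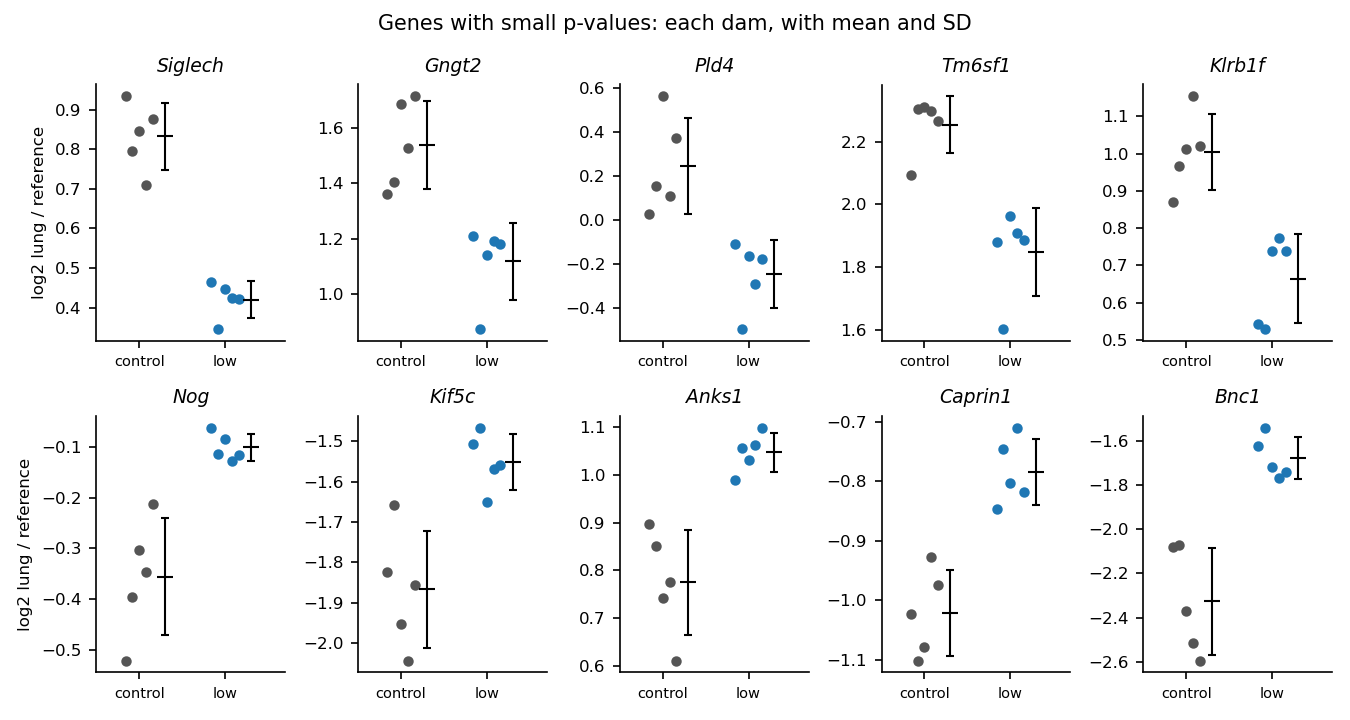
Each dot is 1 dam, control or low dose, for 10 genes; the y axis is the log2 ratio of lung over reference, and the bar is the mean with its SD over 5 dams. In all 10 genes the low-dose dams lie wholly below (Siglech, Gngt2, Pld4, Tm6sf1, Klrb1f) or wholly above (Nog, Kif5c, Anks1, Caprin1, Bnc1) the controls, and of these genes only Siglech passed the test.

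Genes shared by leukocytes lay low as a group after the low dose, with no gene of the list called. A list of 40 such genes, drawn up after values had been seen, had all 40 measured members below 0, 23 of them at an unadjusted p under 0.05, and a median difference of -0.25, against -0.00028 over all genes. The low-dose dam was lower on 5 of 5 slides for 24 of the 40 genes, and 6 did not overlap between groups. Over all genes 4.08% lay lower at such a p, 7.06% were lower on 5 of 5 slides and 0.88% were lower without overlap. As the list was drawn up with values known, setting it against these shares is not a test. The mean of the 40 genes per dam, relative to the control average, was -0.22, -0.12, 0.30, -0.029 and 0.059 in controls and -0.24, -0.40, -0.16, -0.17 and -0.26 after the low dose. Dam 14 was the highest control and dam 27 the lowest of all, and control 4 lay within the low-dose range.

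Ptprc, the CD45 phosphatase on all leukocytes, lay at 0.10, 0.36, 0.85, 0.55 and 0.55 in controls and at 0.071, -0.18, 0.37, 0.27 and 0.19 after the low dose (difference -0.34 ± 0.13, SE, adjusted p = 0.631). Itgal, the alpha chain of the integrin LFA-1, lay at 1.44, 1.47, 1.92, 1.75 and 1.68 and then at 1.38, 0.87, 1.24, 1.27 and 1.27. Neither Itgal nor its beta chain Itgb2 overlapped between groups, and both differed by -0.45 (adjusted p = 0.509 and 0.591). Tyrobp, the signalling adaptor that Siglech uses, ranged from 1.88 to 2.43 in controls and from 1.40 to 1.84 in low-dose dams (difference -0.35 ± 0.098, adjusted p = 0.591). Fermt3, the integrin activator kindlin-3, differed by -0.37 and Arhgdib by -0.40 (adjusted p = 0.509 and 0.576). Without control dam 14, 36 of the 40 genes lay below 0, 16 of them at an unadjusted p under 0.05, with a median of -0.17. Without low-dose dam 27 all 40 lay below 0 and 17 had an unadjusted p under 0.05.

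Plasmacytoid dendritic cell genes lay on both sides of 0. Of 21 measured genes, chosen after values were seen, 15 lay below and 6 above 0, with a median of -0.078. A lower value at an unadjusted p under 0.05 was found for 6 of them and for 4.08% of all genes. Without control dam 14 these 6 became 4 genes, and 3 with dams 27 and 28 left out, with a median of -0.030. Ccr9, a chemokine receptor of these cells and of T cells, lay at -0.82, -0.64, -0.53, -0.69 and -0.52 in controls and at -1.01, -0.80, -1.10, -0.75 and -0.87 (difference -0.26, adjusted p = 0.595). Tlr7, a sensor of single-stranded RNA, differed by -0.37 (adjusted p = 0.595), with dam 27 far below the other low-dose dams.

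Other genes of the programme had estimates above 0. The factors Tcf4 and Irf8, which many other cells also make, differed by 0.11 and 0.029 (adjusted p = 0.823 and 0.963). Tlr9, a sensor of DNA, and Bst2, a surface marker that interferon also raises, differed by 0.093 and 0.18 (adjusted p = 0.752 and 0.713). Among 27 antigen presentation and dendritic cell genes, 15 lay above and 12 below 0 with a median of 0.013 whose sign changed in 7 of 26 settings (other processing choices, other fits and single arrays left out). With dam 14 left out it was 0.081, with 17 above 0. The 3 with a lower value at an unadjusted p under 0.05 were Siglech, Ccr9 and Cd40, the co-stimulatory receptor that binds CD40 ligand. Cd40 lay at 1.17, 1.10, 1.14, 1.17 and 1.21 in controls and at 0.95, 0.72, 1.02, 0.85 and 0.94, with no overlap (difference -0.26, adjusted p = 0.591).

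Genes that define macrophages lay mostly below 0. Of 19 measured, 15 did so, 4 at an unadjusted p under 0.05, and the median was -0.17. The share of all genes lower at such a p was 4.08%. Siglecf, a lectin of alveolar macrophages and eosinophils, lay at 2.67, 2.58, 3.04, 2.58 and 2.62 in controls and at 2.30, 1.79, 2.19, 2.38 and 1.95 after the low dose. No low-dose dam reached a control, and the difference was -0.58 ± 0.15 (SE, adjusted p = 0.522). Csf1r, the receptor for macrophage colony-stimulating factor, differed by -0.27 and Cd68, a lysosomal glycoprotein, by -0.43 (adjusted p = 0.591 and 0.595). The list mean was 0.38 in control dam 14 and below 0 in each other control; without that dam the list's median was -0.092, with 15 of 19 genes below 0.

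Genes of particle-laden and inflammatory macrophages, 40 measured, had 19 above and 21 below 0 and a median of -0.019, a sign that changed in 2 of 26 settings. Of these, 5 lay lower and 0 higher at an unadjusted p under 0.05, where 4.08% of all genes lay lower and 3.42% higher. The median was 0.00034 without control dam 14, with 4 lower and 5 higher at such a p. Clec4e, a sensor of mycobacterial glycolipid and of dead cells, did not overlap between groups, at -2.52 to -2.25 in controls and -2.97 to -2.53 in low-dose dams (difference -0.43, adjusted p = 0.591). Lpcat2, an enzyme that makes platelet-activating factor, differed by -0.26 (adjusted p = 0.591).

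Neutrophil genes also lay mostly below 0, in 17 of 20 measured, 6 of them at an unadjusted p under 0.05, with a median of -0.24. At such a p 4.08% of all genes lay lower. Retnlg, a resistin-like protein of neutrophils, lay at 2.96, 3.36, 3.86, 2.91 and 2.99 in controls and at 2.04, 2.13, 2.84, 3.15 and 2.48 (difference -0.69 ± 0.25, SE, adjusted p = 0.598). The granule genes Ngp, Camp and Mmp8 differed by -0.62, -0.65 and -0.60 (adjusted p = 0.633, 0.647 and 0.647). Control dam 14 had the highest Ngp of the 10 dams, 2.40. Without it 17 of the 20 genes lay below 0, 1 had an unadjusted p under 0.05 and the median was -0.15. Leaving out low-dose dam 27 instead also left 1 gene at such a p, with a median of -0.18.

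Eosinophil and mast cell genes had a median of -0.12 over 15 measured, with 10 below 0; the sign of the median changed in 1 of 26 settings. Leaving out control dam 14 gave -0.040, with 10 of 15 below 0. Ear6, an eosinophil-associated ribonuclease, lay at 2.76, 2.58, 2.85, 2.85 and 2.79 in controls and at 2.33, 2.40, 2.30, 2.71 and 2.21. Its difference was -0.37 (adjusted p = 0.591) and turned to 0.083 with the scanner software's ratio.

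Of 32 T and natural killer cell genes 29 lay below 0, 5 at an unadjusted p under 0.05 and 8 on every slide, with a median of -0.16. Over all genes 4.08% lay lower at such a p and 7.06% on every slide. Klrb1c, the NK1.1 receptor, lay at 2.39, 2.72, 2.90, 2.92 and 2.92 in controls and at 2.33, 2.30, 1.98, 2.45 and 2.31 (difference -0.50 ± 0.14, SE, adjusted p = 0.591), and a second probe of it lay at -0.039. Klrb1a, of the same receptor family, did not overlap between groups (difference -0.37, adjusted p = 0.522) but turned to 0.038 with the scanner software's ratio. Without control dam 14, 27 of the 32 genes lay below 0, 3 at an unadjusted p under 0.05. Without low-dose dam 27, 2 had such a p. Of 27 B and plasma cell genes 21 lay below 0, 1 at such a p, with a median of -0.075. Without control dam 14, 18 of the 27 lay below 0, none at such a p, with a median of -0.039.

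**Figure D3:**
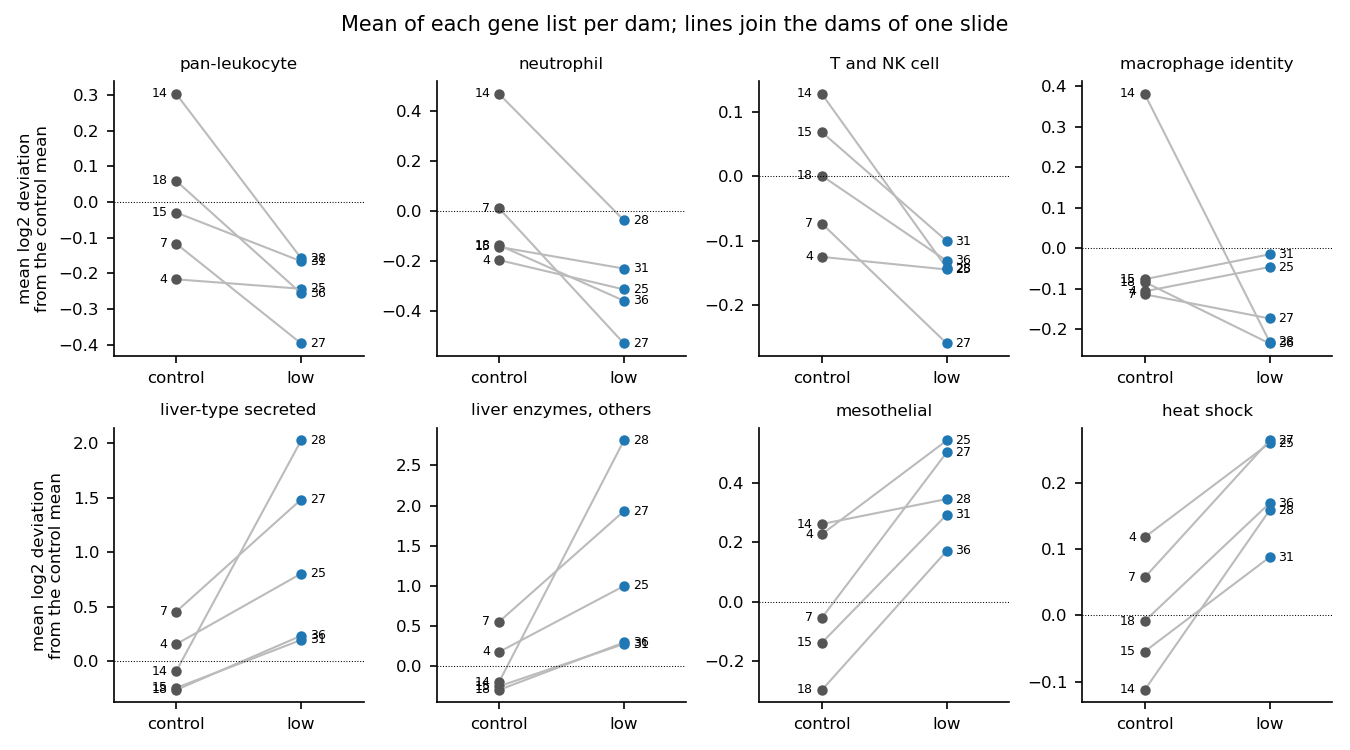
Each dot is the mean of a gene list in 1 dam, as the log2 deviation from the average of the 5 controls, and a line joins the control and the low-dose dam of 1 slide. The lines of all 5 slides fall for the pan-leukocyte, neutrophil and T and NK cell lists and rise for the liver, mesothelial and heat shock lists, and control dam 14 is the highest point of the leukocyte lists.

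No gene of the inflammatory mediators that particles are known to raise was called. Of 30 chemokines 16 lay above and 14 below 0, with a median of 0.036 whose sign changed in 4 of 26 settings. Cxcl5 lay at -3.47, -3.16, -3.53, -3.81 and -3.47 in controls and at -3.32, -3.40, -3.46, -3.61 and -3.39 after the low dose. The low-dose values lay within the control range, and the difference was 0.050 ± 0.38 (SE, 95% interval -0.74 to 0.84, adjusted p = 0.988). This SE and interval rest on a variance pooled over all groups, and the high-dose values ran from -1.75 to 0.84. The SD was 0.23 in controls and 0.11 after the low dose, so the interval does not reflect the spread of these groups alone. The sign of the Cxcl5 difference turned in 3 of the settings, as with the scanner software's ratio (-0.083). Ccl5, a T cell chemokine, and Ccl9, a macrophage chemokine, differed by -0.31 and -0.33 (adjusted p = 0.674 and 0.721). Ccl25, the ligand of Ccr9, was the 1 chemokine with an unadjusted p under 0.05, with a difference of 0.15 (adjusted p = 0.647).

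Of 24 cytokines and inhibitors 16 lay below 0 and 4 had a lower value at an unadjusted p under 0.05, as did 4.08% of all genes. Il1b, the inflammasome-processed cytokine, lay at 2.47, 3.37, 3.44, 3.11 and 3.13 in controls and at 1.99, 1.57, 3.13, 2.72 and 2.51. The groups overlapped, and its difference of -0.72 ± 0.32 (SE, adjusted p = 0.647) was the lowest of the list. Il1r2, the decoy receptor for interleukin-1, differed by -0.39 and Ifng, interferon gamma, by -0.27 (adjusted p = 0.618 and 0.635). A second Il1r2 probe lay at -0.14. Interferon-stimulated genes, 36 measured, had a median of 0.034 with 23 above 0. Among them Mx1, an antiviral GTPase, differed by -0.29 and Irgm2, an interferon-inducible GTPase, by 0.30 (adjusted p = 0.591 and 0.647).

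Acute-phase genes had their largest differences in genes made mainly by liver. Saa3, a serum amyloid A made in lung, lay at -2.52, -2.52, -2.09, -2.95 and -2.51 in controls and at -2.33, -2.70, -2.46, -1.70 and -2.56, a difference of 0.17 ± 0.44 (SE, adjusted p = 0.952). As for Cxcl5, this SE rests on a variance pooled over all groups and not on control and low-dose dams alone. Lcn2, the siderophore-binding lipocalin, differed by -0.34 (adjusted p = 0.773). Fgb, the fibrinogen beta chain made in liver, differed by 1.72 (adjusted p = 0.631) and Hpx, the heme carrier hemopexin, by 0.82 (adjusted p = 0.662). Over the list, 19 of 26 genes lay above 0, 2 higher and 1 lower at an unadjusted p under 0.05, with a median of 0.13. The shares of all genes at such a p were 3.42% higher and 4.08% lower. Complement genes, 21 measured, had a median of 0.10, a sign that changed in 1 of 26 settings. C2, a protease of the classical pathway, lay at 3.00, 2.86, 3.46, 2.77 and 2.77 in controls and at 3.62, 3.29, 3.42, 3.53 and 3.25 (difference 0.45, adjusted p = 0.606), and C3, the central complement protein, differed by 0.24 (adjusted p = 0.757). A second C3 probe lay at 0.053.

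Liver-made transcripts gave the largest estimates of the comparison, and none was called. A list of 22 secreted liver proteins was drawn up after values were seen. All 20 measured members lay above 0, with a median of 0.94. Among them 13 had an unadjusted p under 0.05 and 16 were higher on 5 of 5 slides. Over all genes 3.42% lay higher at such a p and 6.68% on 5 of 5 slides. Of 14 liver enzymes and other liver genes, also chosen after values were seen, all 14 lay above 0 at such a p, with a median of 1.16. Alb, the serum carrier albumin, lay at 2.02, 2.58, 0.99, 0.81 and 0.73 in controls and at 2.88, 3.37, 3.37, 2.38 and 2.48 (difference 1.47 ± 0.48, SE, adjusted p = 0.591). Control dam 7 lay above 2 of the low-dose dams.

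Mup1, a major urinary protein, lay at 1.64, 2.37, 0.58, 0.53 and 0.095 in controls and at 3.14, 4.26, 4.63, 1.79 and 1.47 (difference 2.02 ± 0.76, SE, adjusted p = 0.618). Cyp3a41a, a liver cytochrome P450, had the largest difference of all genes, 2.33 ± 0.94 (SE, adjusted p = 0.633), with 4.67 in dam 28 and 3.77 in dam 27 against 0.64 and 0.63 in dams 31 and 36. Ambp, the precursor of alpha-1-microglobulin, ranged from 0.58 in dam 31 to 4.54 in dam 28. The low-dose dams were thus far apart: the mean of the secreted list per dam was 0.80, 1.48, 2.03, 0.19 and 0.23, next to 0.15, 0.45, -0.093, -0.25 and -0.27 in controls.

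Dams 27 and 28 had the highest liver means. Without both, a choice made after the data were seen, all 20 secreted genes still lay above 0, with 0 at an unadjusted p under 0.05, and the median was 0.32. The 14 others had a median of 0.48 and likewise 0 at such a p. Without dam 27 alone, 1 secreted gene and 4 of the others had one. Mup5, a further urinary protein gene, was the 1 gene of both lists whose groups did not overlap, at -0.12 to 0.0033 in controls and 0.092 to 1.62 after the low dose. The secreted list had a median of 0.50 for the medium and 0.52 for the high dose against the same controls. These exposed dams were also far apart. The list mean was 1.82, 0.14, 0.0057, 0.17 and 0.20 in medium-dose dams 46, 47, 48, 49 and 50. It was 1.47, -0.080, -0.015, -0.24 and 1.06 in high-dose dams 60, 62, 63, 64 and 65. Only dams 46, 60 and 65 of them lay above the control range. Whether these transcripts came from lung cells was not tested.

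Mesothelial genes, which mark the lining of the lung surface, lay above 0. All 13 measured members of a list chosen after values were seen did so, with a median of 0.34. Among them 6 had an unadjusted p under 0.05 and 7 were higher on every slide. Over all genes 3.42% lay higher at such a p and 6.68% on every slide. Wt1, a transcription factor of mesothelium, lay at -1.33, -1.59, -1.66, -2.06 and -1.95 in controls and at -0.47, -0.91, -1.26, -1.31 and -1.45 (difference 0.64 ± 0.24, SE, adjusted p = 0.618). Msln, the surface protein mesothelin, lay at -0.79, -0.91, -0.39, -1.40 and -1.58 and then at -0.27, -0.14, -0.32, -0.49 and -0.78 (difference 0.61, adjusted p = 0.618). The groups overlapped in both genes. Upk3b, a mesothelial uroplakin, differed by 0.49 (adjusted p = 0.647). The list mean per dam was 0.23, -0.054, 0.26, -0.14 and -0.30 in controls and 0.54, 0.50, 0.35, 0.29 and 0.17 after the low dose. Without low-dose dam 27, 3 of the 13 genes had an unadjusted p under 0.05. That number was 2 with dams 27 and 28 both left out and 10 with control dam 14 left out.

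Epithelial and endothelial lists held no gene at an unadjusted p under 0.05. The 23 genes of alveolar type 1 and type 2 cells had a median of 0.15, with 19 above 0. Lists of 23 airway secretory and ciliated genes and of 23 endothelial genes had medians of -0.056 and 0.063, whose signs changed in 5 and 1 of 26 settings. Matrix genes, 39 measured, had 27 below 0 and a median of -0.069. Among them Mmp3, a stromal metalloprotease, differed by 0.62 ± 0.28 (SE) and Fn1, fibronectin, by -0.31 (adjusted p = 0.647 and 0.654). Hhip, the hedgehog decoy receptor, lay at 2.29, 2.39, 2.65, 2.23 and 2.49 in controls and at 1.83, 2.04, 2.29, 1.94 and 2.24 (difference -0.34 ± 0.093, adjusted p = 0.591).

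**Figure D4:**
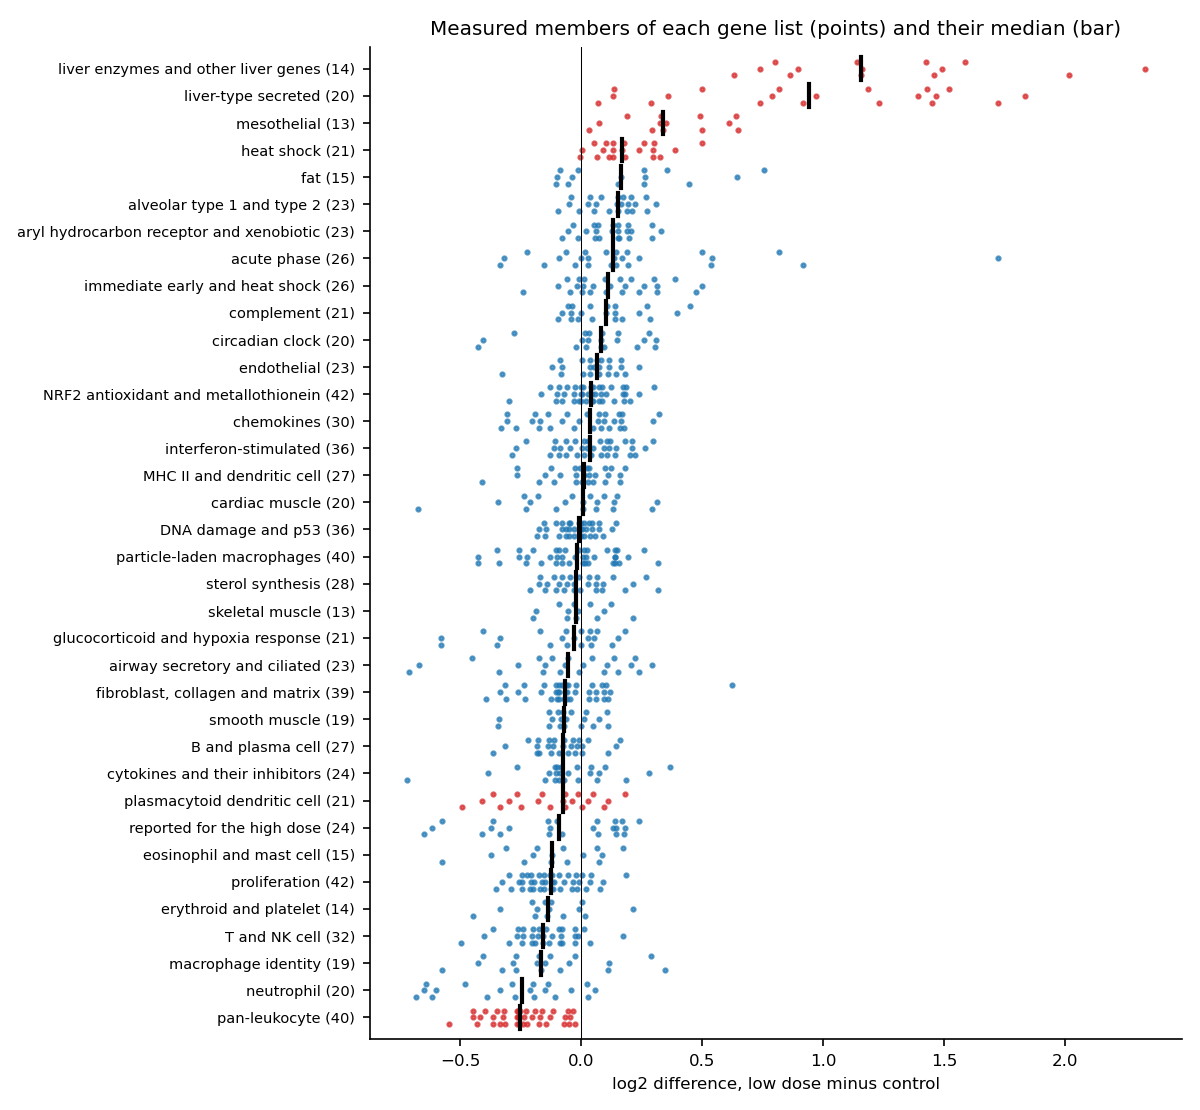
Each row is a gene list, each point a gene's log2 difference of low dose minus control and each bar the list's median; red lists were chosen after values were seen. Medians run from -0.25 for pan-leukocyte genes to 1.16 for liver enzymes and other liver genes.

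No gene of the stress pathways that nanoparticles can engage was called. The 42 genes of the NRF2 antioxidant and metallothionein list had a median of 0.041, a sign that changed in 1 of 26 settings. At an unadjusted p under 0.05 were Keap1, the repressor of NRF2, at 0.17, and Gsr, glutathione reductase, at -0.30 (adjusted p = 0.633 and 0.591). The groups of both did not overlap, while 2 other Gsr probes lay at -0.14 and -0.033. The 36 DNA damage and p53 genes had a median of -0.0083, with Tnfrsf10b, a death receptor for TRAIL, at 0.14 and Fas, the death receptor for Fas ligand, at -0.18 (adjusted p = 0.591 and 0.647). Other Tnfrsf10b probes lay at 0.11 and 0.031. For 23 targets and partners of the aryl hydrocarbon receptor and other xenobiotic genes, the median was 0.13, further from that of all genes and above 0 in all 26 settings, with 19 above 0. Arnt, the receptor's partner, was the 1 gene there with such a p, at 0.15 (adjusted p = 0.647), and its 3 other probes lay at 0.041, -0.012 and -0.044. Cyp1a1, the receptor's best known target, lay at 1.24, 1.97, 1.08, 1.33 and 1.62 in controls and at 1.99, 1.75, 1.07, 1.58 and 1.87, a difference of 0.21 (adjusted p = 0.844).

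Heat shock genes lay slightly above 0. Of 21 measured chaperone genes, a list chosen after values were seen, 20 did so, with a median of 0.17. Higher at an unadjusted p under 0.05 were 7 of them and 3.42% of all genes. Hsp90aa1, the inducible HSP90, lay at -0.17, -0.35, -0.44, -0.57 and -0.31 in controls and at 0.057, 0.23, -0.039, -0.027 and -0.12. Its groups did not overlap, and the difference was 0.39 ± 0.16 (SE, adjusted p = 0.633). Chordc1, an HSP90-binding protein, differed by 0.29 (adjusted p = 0.591) and Hspa8, the constitutive HSC70, by 0.30 (adjusted p = 0.635). Without control dam 14, 3 of the 21 genes had an unadjusted p under 0.05, and 2 did with dams 27 and 28 left out. Ier3, an immediate early gene, differed by 0.31 (adjusted p = 0.591).

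Of 42 cell cycle genes 35 lay below 0 with a median of -0.13, and 1 had an unadjusted p under 0.05, the spindle checkpoint kinase Bub1b (-0.21, adjusted p = 0.595). Over the settings the number lower at such a p ran from 0 to 19, and the median stayed below 0 in all 26. Control dam 15 had the lowest list mean of the 10 dams, -0.33. Of 28 genes of sterol synthesis and lipid handling, 1 had such a p, Srebf1, a lipogenic regulator, at 0.27 (adjusted p = 0.638). Erythroid and platelet genes had a median of -0.14 over 14, with Gp5, a platelet glycoprotein, at -0.34 (adjusted p = 0.606). Heart and fat tissue genes varied between dams in both groups. The mean of 20 cardiac muscle genes ranged from -1.23 to 0.45 over controls and from -1.03 to 0.54 over low-dose dams, and the mean of 15 fat genes reached 1.61 in low-dose dam 25. No gene of either list had an unadjusted p under 0.05.

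The low dose differed from the high dose in 29 genes, all higher at the high dose (0.144% of genes called by limma with Benjamini-Hochberg adjustment). Cxcl5 ranged from -1.75 to 0.84 in the 5 high-dose dams and from -3.61 to -3.32 after the low dose. It was 7.77-fold higher at the high dose (log2 2.96 ± 0.38, SE, adjusted p = 0.00121). Over 25 other settings its log2 difference ran from 2.78 to 4.18, highest with the scanner software's ratio, and it was called in 25 of them. Ly6f, a lipid-anchored surface protein of the Ly6 group, was 3.28-fold higher and Trem2, a lipid-sensing receptor of macrophages, 2.06-fold (adjusted p = 0.00121 and 0.00121). Ly6f reached 2.40 on the log2 scale with the Cy5 channel alone and lost its call with the scanner software's ratio (1.68, adjusted p = 0.187). Clec5a, a myeloid lectin receptor, was 1.91-fold and Noxo1, the organiser of NADPH oxidase 1, 2.43-fold higher (adjusted p = 0.00621 and 0.00621). U10410, a transcript without a symbol in the files that ranked ahead of Noxo1 by p, was 2.19-fold higher (adjusted p = 0.00621). The groups of these 6 genes did not overlap, as was so for 1.19% of all genes on the higher side and 0.776% on the lower. At an unadjusted p under 0.05, 4.96% of genes lay higher and 5.03% lower at the high dose.

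The following other genes of this contrast were chosen after their values were seen. Lcn2 was 2.66-fold higher (adjusted p = 0.00964), Ms4a7, a tetraspan of macrophages, 2.07-fold (adjusted p = 0.0107) and Ccl9 2.03-fold (adjusted p = 0.0237). The log2 difference of Lcn2 was 1.41 and reached 2.24 with the Cy5 channel alone. Csf2, the cytokine GM-CSF, was 1.57-fold higher (adjusted p = 0.0230). Its groups overlapped, with 1.38 in high-dose dam 60 and 1.42 in low-dose dam 27. Slc7a11, the cystine transporter, differed by 0.53 (adjusted p = 0.0160), but its probe was well above background on only 1 of 5 low-dose arrays. Its value ran from 0.20 to 1.69 over 24 settings and it was called in 16 of them. Birc3, an inhibitor of apoptosis, Il1rn, the interleukin-1 receptor antagonist, and Vnn1, a pantetheinase, were 1.45-fold, 1.54-fold and 1.93-fold higher (adjusted p = 0.0277, 0.0431 and 0.0457). Of 25 other settings, the call held in 9 for Vnn1, 14 for Il1rn, 18 for Birc3, 18 for Ccl9, 19 for Csf2, 23 for Ms4a7 and 24 for Lcn2. Saa3 had a high minus low difference of 2.05, and its adjusted p of 0.0662 missed the threshold. In low minus control, which shares the low-dose arrays, Ly6f, Trem2, Clec5a and Noxo1 differed by -0.14, -0.081, -0.13 and -0.14 (adjusted p = 0.917, 0.922, 0.869 and 0.910). The number called was 16, 16, 14, 18 and 11 without low-dose dams 25, 27, 28, 31 and 36 in turn, and 6 without both 27 and 28.

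A list of 24 genes chosen because they differed at the high dose in these data was read in low minus control, which shares the controls. Of the 24, 11 lay above and 13 below 0, with a median of -0.091, a sign that changed in 1 of 26 settings. At an unadjusted p under 0.05 Olfr32, an olfactory receptor gene, lay higher (0.18, adjusted p = 0.591), and Siglech, Siglecf, Ear6, Klrb1a, Camp and Ngp, with the values given above, lay lower. Klra8, a natural killer cell receptor, differed by -0.30 (adjusted p = 0.665) and turned to 0.32 with the scanner software's ratio.

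**Figure D5:**
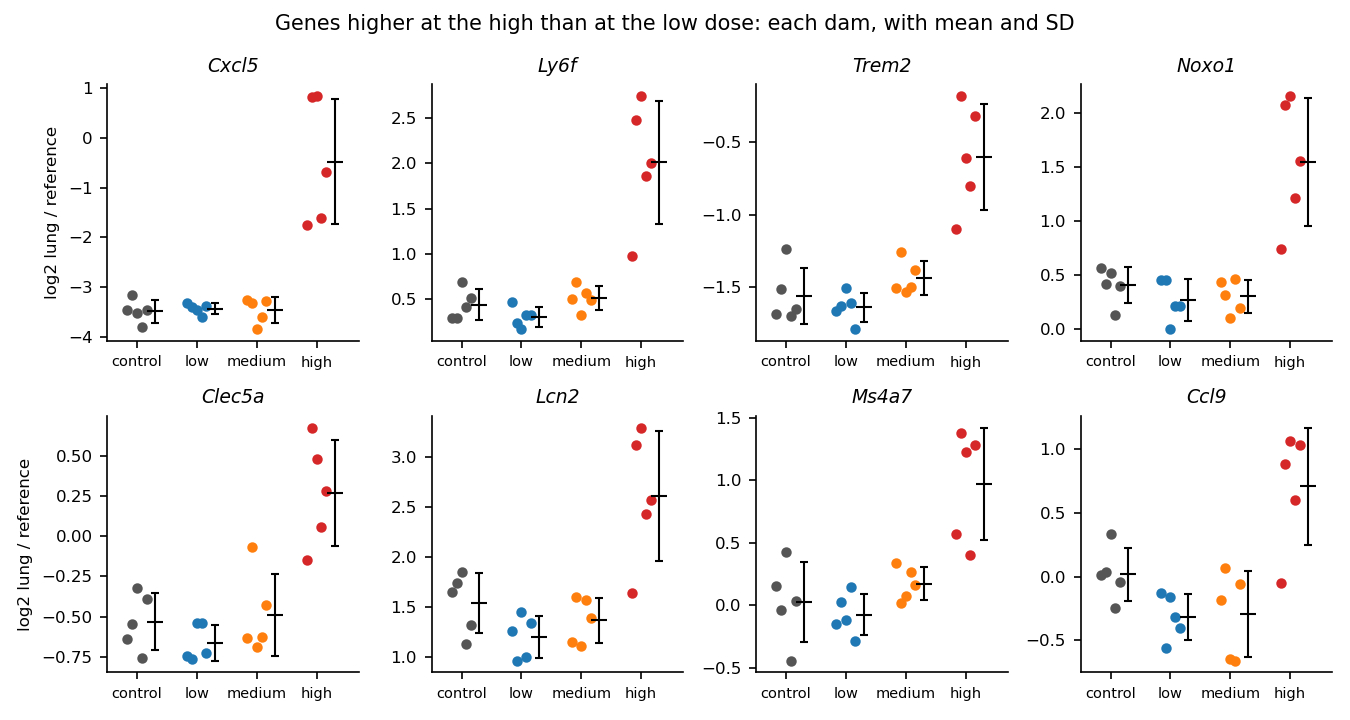
Each dot is 1 dam, with the 4 dose groups on the x axis, the log2 ratio of lung over reference on the y axis and the mean with its SD over 5 dams. For these 8 genes the control, low and medium dams overlap and the high-dose mean lies above them, by most for Cxcl5.

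Medium minus low gave 0 called genes by limma (0% of genes, lowest adjusted p 0.997) and 758 at an unadjusted p under 0.05 (3.77%), of which 490 lay higher (2.44%) and 268 lower (1.33%) at the medium dose. The groups did not overlap for 0.472% of genes on the higher and 0.189% on the lower side. Medium-dose dams 49 and 50 were on slide 6, which held no low-dose array, so slide and dose are partly mixed in this contrast. The 5 genes with a symbol and the smallest p were Cyp1a1, Mslnl, Gngt2, Trmo and Sat1. Cyp1a1 had a medium minus low difference of -0.82 ± 0.19 (SE, adjusted p = 0.997), from 1.07 to 1.99 in low-dose to 0.59 to 1.19 in medium-dose dams. For Gngt2 it was 0.30 ± 0.078 (SE, adjusted p = 0.997), so its medium-dose mean of 1.42 lay between the low-dose mean of 1.12 and the control mean of 1.54. Mslnl, a relative of mesothelin, Trmo, a tRNA methyltransferase, and Sat1, the polyamine acetyltransferase, differed by 0.23, 0.23 and 0.33.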

How the data were processed

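Two-colour Agilent 4x44K mouse arrays measured lung RNA in Cy5 against a reference RNA in Cy3, with no dye swap. The deposited value table held log2 ratios of lung over reference; compared with the scanner files, they were ratios of median signals, with an intensity-dependent shift removed and no background subtracted, by a method not given in the sources used here. The deposited scanner files also gave intensity values, flags and a log10 ratio, made with Agilent Feature Extraction per the file headers.

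Outlier-flagged spots were left out and spots of a probe averaged. A gene (GeneName, brightest probe) was kept where Cy5 was well above background on at least 3 of 5 arrays of a group and a value existed on at least 16 arrays. limma 3.58.1 (R 4.3.3) was fitted over all 20 arrays, 5 per group, without a block, with Benjamini-Hochberg adjustment over 20108 genes, and was tested on simulated data. The labels give each array its own dam. Genes and lists were chosen with earlier results of these data known. Named genes, among those with a symbol in the files, are the 8 with the smallest p in each direction of low minus control where fewer than 5 passed, the 3 with the smallest p in each list, the 5 with the smallest p in high minus low and in medium minus low, and 24 high-dose genes; others were chosen after their values were seen. Alternatives changed the ratios, scaling, filter, probes, arrays, slide block and variance model.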

Additional observations from a re-analysis of the deposited data

Results flagged for a closer look

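In 182 groups of 5 dams, 11 held a dam far from the other 4, where its gap to the nearest of them exceeded 0.71 of the group's range; chance gives this in about 1 of 20 groups. Gngt2 lay at 0.872 in low-dose dam 27, and at 1.14 to 1.21 in the other 4 low-dose dams. Tm6sf1 lay at 2.09 in control dam 4, and at 2.27 to 2.31 in the other 4 control dams. Tm6sf1 lay at 1.6 in low-dose dam 27, and at 1.88 to 1.96 in the other 4 low-dose dams. Pcdhb4 lay at 1.82 in control dam 18, and at 1.36 to 1.49 in the other 4 control dams. Itgal lay at 0.872 in low-dose dam 27, and at 1.24 to 1.38 in the other 4 low-dose dams. Itgb2 lay at -0.0245 in low-dose dam 27, and at 0.321 to 0.434 in the other 4 low-dose dams. Siglecf lay at 3.04 in control dam 14, and at 2.58 to 2.67 in the other 4 control dams. Tlr7 lay at 0.397 in low-dose dam 27, and at 0.98 to 1.16 in the other 4 low-dose dams. Mup5 lay at -0.116 in control dam 15, and at -0.0269 to 0.00329 in the other 4 control dams. Bub1b lay at -2.98 in control dam 15, and at -2.72 to -2.62 in the other 4 control dams. Olfr32 lay at -0.371 in control dam 18, and at -0.259 to -0.213 in the other 4 control dams. Of these values, 5 belonged to low-dose dam 27, each below the other low-dose dams.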

How the results depend on the processing

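Of 99 gene differences, 93 kept their direction in every alternative setting in which they were computed. These were 26 or 27 settings for low minus control and 24 or 25 for high minus low. Reversed values were, with the scanner software's ratio, Klrb1a 0.038, Klra8 0.32, Ear6 0.083, Ly6f 0.055 and Cxcl5 -0.083. With the Cy5 channel alone they were Nog -0.51 and Cxcl5 -0.059, and Cxcl5 ranged from -0.031 to 0.13 when a dam was left out, the first without control dam 15; the cause was not tested. Siglech lost its call with normexp (-0.37), the software's ratio (-0.81), Cy5 alone (-0.36), the fit of 10 arrays (-0.41), that fit with slide as a block (-0.41) and without low-dose dams 27 and 28 (-0.40, chosen after seeing the data); smaller fits hold fewer arrays. The count of low minus control calls was 0 in these settings, except that the fit of 10 arrays called 1 gene, Sh2d1b1. At an unadjusted p under 0.05 were 1485 genes with normexp, 1258 with the software's ratio, 555 with Cy5 alone, 1624 in the fit of 10 arrays, 2691 with the block and 762 without dams 27 and 28. Leaving out each control or low-dose dam in turn gave 1 call each time, with Siglech from -0.44 to -0.39. High minus low gave 13 calls with the software's ratio, 18 without the 2 medium arrays of slide 6, 6 without dams 27 and 28, and 11 to 32 leaving out a dam. Medium minus low stayed at 0 calls in all settings. No replicate number is shared between groups; control and low-dose dams were paired by slide, 1 of each on slides 1 to 5, through the slide block. Of 36 list medians, 22 kept their sign in all 26 settings in which lists were computed, among them the pan-leukocyte, neutrophil, macrophage identity, liver, mesothelial and heat shock lists. The number of arrays limits the precision.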
